A study of Musa balbisiana with 10 samples.

Results

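In pulp of the banana Klutuk Wulung, a Musa balbisiana cultivar of the BB group, 306 transcribed regions were higher in ethylene-treated than in control fruit on day 1 and close to control fruit on day 7. They were chosen by these values, out of 27929 regions with a row in every library. A region is a stretch of the genome in which loci of at least 300 bp from any of the 10 libraries overlap, and its value in a library is the sum of the FPKM of the loci there. FPKM is the number of sequenced fragments after division by transcript length and library size. The 306 regions, called early-induced regions here as a name for the rule, had to differ by at least 1.5 between ethylene-treated and control fruit on day 1. On day 7 they had to differ by between -0.5 and 0.5. Both differences are between group means of log2(FPKM + 1), so that 1 is about a 2-fold difference and changes of weakly expressed regions are understated. A mean FPKM of at least 1 in control fruit on either day was also asked for.

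The groups were control fruit on day 1 (K1, libraries A and B), fruit exposed to 100 µl/L ethylene gas in a glass container and sampled on day 1 (E1, libraries A and C), and the same treatments on day 7 (K7 and E7, libraries A, B and C each). All fruit was of 1 cultivar and picked for like skin colour, size and age. Treated fruit was taken out of the container after the incubation and kept at room temperature, so the E7 libraries describe fruit some days after the gas was removed. The study calls the libraries biological replicates, but the sources do not say which fruit or bunch each came from, and the p-values measure only the spread between these libraries. Sequencing was single-end for K1 A, K7 A and E7 A, and paired-end for the remaining 7, both of E1 included.

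Banana is a climacteric fruit, in which ripening sets in with a burst of ethylene made by the fruit itself, and gas applied to unripe fruit brings this forward. Ethylene binds receptors that otherwise hold the pathway off, and the signal runs through EIN2 to EIN3-like transcription factors and on to ERF factors. Known targets include enzymes that make ethylene, break down starch and loosen cell walls, and some of the direct targets respond for a short time only. The sources used here pair no gene name or function with the identifiers, which begin with Mba, so the early-induced regions are described by position and value and are not sorted by role. No ripening marker could be looked up for the same reason. Positions are those in the deposited tables, which refer to the DH PKW v1.1 genome. In pulp as a whole, a change in the cells that express a region and a change in RNA per cell cannot be told apart.

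Of the 27929 regions, 1345 had an E1 minus K1 difference of at least 1.5, and 1077 of these also had the control level asked for. The day 7 difference then divided them. In 760 regions ethylene-treated fruit was still higher by more than 0.5 on day 7, in 11 it was lower by more than 0.5, and the remaining 306 lay between. Another 84 regions met both differences with a control mean below 1 FPKM on each day, and are not counted. To enter the tests a region needed an average of 1 FPKM or more across the 10 libraries, and 16821 regions reached it, all 306 early-induced regions among them. In 264 of the 306, every one of the 5 control libraries had at least 1 FPKM (90.4% of all tested regions), a level that the rule asks for in part.

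**Figure D1:**
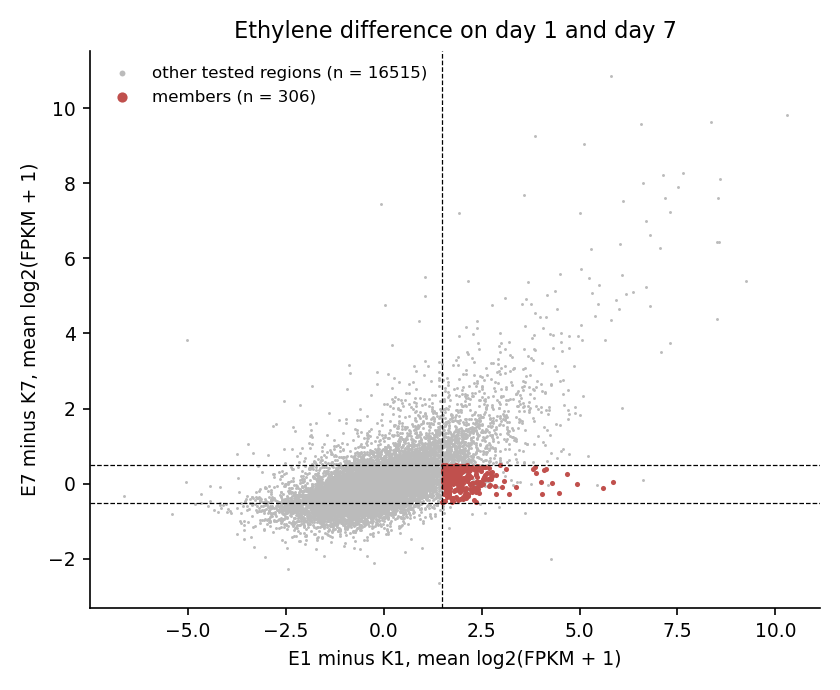
Difference between ethylene-treated and control fruit on day 1 (horizontal) and on day 7 (vertical), both in mean log2(FPKM + 1), for the 306 early-induced regions (red) and the other tested regions (grey). Dashed lines are the thresholds of 1.5 and of -0.5 and 0.5 by which the regions were chosen, and grey points inside them had a control mean below 1 FPKM.

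The thresholds passed through a continuous range. On chromosome 8, the region at 43898-47864 entered with an E1 minus K1 difference of 1.501, and on chromosome 1 the region at 1944491-1947833 had 1.4997 and did not. At the upper limit on day 7, chr1:18684117-18688480 entered with 0.497 and chr2:18788396-18804117, with 0.501, did not. At the lower limit, chr3:4598545-4606995 entered with -0.489 and chr10:29968737-29975749, with -0.530, did not. For the control level, chr10:36618846-36620782 entered with a K7 mean of 1.06 FPKM, and chr8:41278839-41282095 had 0.942 FPKM in K1 and 0.678 in K7 and did not.

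Most early-induced regions changed by a moderate amount. The E1 minus K1 difference had a median of 1.89 (quartiles 1.66 and 2.202, range 1.501 to 5.86), where the median of all tested regions was -0.24. It was between 1.5 and 2 in 190 regions, between 2 and 3 in 98, between 3 and 4 in 8 and at least 4 in 10. The median FPKM over the 306 regions was 6.76 in K1, 30.0 in E1, 8.46 in K7 and 9.07 in E7. By their K1 mean, 129 regions were below 5 FPKM, 118 between 5 and 20, 47 between 20 and 100 and 12 at 100 or more, so both weakly and strongly expressed regions were among them.

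Together the early-induced regions took up 5.12% and 5.21% of the FPKM of all regions in the E1 libraries. In K1 they took up 1.41% and 2.03%, in K7 1.75% to 2.53% and in E7 1.68% to 2.05%. Relative to the K1 mean of each region, the median over the 306 regions was 1.88 in E1 A and 1.89 in E1 C, between 0.21 and 0.28 in the K7 libraries, and between 0.36 and 0.44 in the E7 libraries. The E1 libraries thus stood apart from the other 8 by these medians, and the E7 libraries lay slightly above the K7 libraries. Both E1 libraries were above both K1 libraries in 304 of the 306 regions (28.7% of all tested regions), and above all other 8 libraries in 293 (16.7% of all tested regions). The E1 medians and the first of these counts follow largely from the choice of the regions. The E1 shares of FPKM and the second count follow from it in part, so all of these values are a description.

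**Figure D2:**
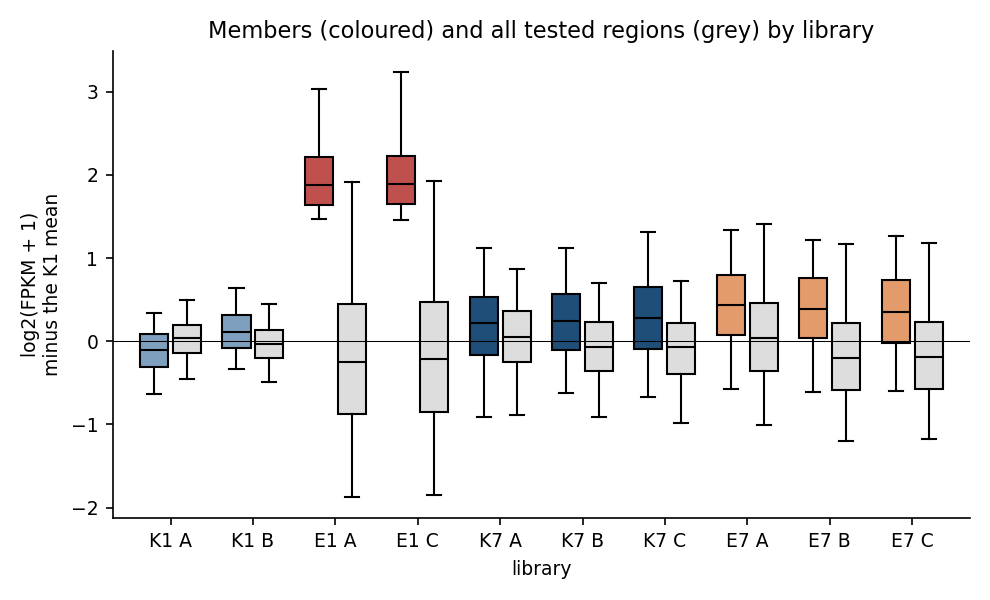
log2(FPKM + 1) minus the K1 mean of the same region in each library, for the 306 early-induced regions (coloured by group) and for all tested regions (grey). Boxes span the quartiles, whiskers the 5th to 95th percentile, and the coloured medians are 1.88 and 1.89 in the E1 libraries and at most 0.44 in the others.

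The largest difference belonged to Mba09_g07750.v1.1, at chr9:5667034-5670340. It had 2.67 and 4.09 FPKM in K1, 255 and 247 in E1, 2.63, 3.67 and 3.26 in K7 and 3.40, 3.24 and 3.21 in E7. The E1 mean of 251 ± 5.10 (SD, n = 2) was 74.2 times the K1 mean of 3.38 ± 1.01 (SD, n = 2), and on day 7 the treated and control libraries overlapped within 2.63 to 3.67 FPKM. This region is 3307 bp long and held 1 locus in every library.

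A similar course, low on day 1 in control fruit, high in E1 and low again on day 7, was seen in the regions ranked next that had close replicates. The unnamed region chr3:1650759-1655070 had 3.92 and 2.19 FPKM in K1, 104 and 96.8 in E1, 5.83, 2.45 and 2.72 in K7 and 5.59, 4.13 and 3.46 in E7. Mba11_g18710.v1.1 (chr11:25364778-25365815) had 7.25 and 5.20 FPKM in K1, 165 and 152 in E1, 1.77, 5.10 and 6.20 in K7 and 3.47, 2.32 and 3.95 in E7. Its E1 values came from loci of 1028 and 1038 bp, and those of the other 8 libraries from the annotated locus of 549 bp. In both regions, the E1 libraries were far above the other 8. The K7 and E7 libraries of each overlapped, but all 3 E7 libraries of Mba11_g18710.v1.1 were below both K1 libraries. In chr3:1650759-1655070 the overlap came from K7 A alone, whose sum holds a further locus of 311 bp with 2.73 FPKM. On the longer locus K7 had 3.09, 2.45 and 2.72 FPKM, below all 3 E7 libraries.

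On the same chromosome as the latter, Mba11_g13260.v1.1 (chr11:20002946-20005344) had 3.06 and 3.56 FPKM in K1 and 84.4 and 82.4 in E1. On day 7 it lay between 5.05 and 7.71 FPKM in all 6 libraries, treated and control, above both K1 libraries. Mba04_g14010.v1.1 (chr4:11268111-11270611) had 3.15 and 5.71 FPKM in K1 and 84.3 and 86.3 in E1, and on day 7 lay between 2.89 and 4.89. Its day 7 libraries overlapped the K1 libraries, while those of Mba11_g13260.v1.1 did not.

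Mba02_g00810.v1.1 (chr2:5235050-5236910) had the highest E7 mean of the 12 leading regions, 34.8 ± 0.637 FPKM (SD, n = 3). It had 9.08 and 26.2 FPKM in K1, 295 and 288 in E1, 19.96, 26.6 and 33.4 in K7 and 34.4, 35.6 and 34.5 in E7. The E7 libraries were all above the K7 libraries, by less than the limit of 0.5 in mean log2. The single-end library was the lower of the K1 libraries and the lowest of the K7 libraries.

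Of the remaining leading regions on chromosome 6, chr6:12228802-12232273 had 3.56 and 10.04 FPKM in K1, 118 and 110 in E1, and 6.81 to 10.9 over the 6 libraries of day 7. A weaker one, chr6:9182998-9196674, had 2.36 and 1.03 FPKM in K1, 35.3 and 40.1 in E1 and 0.745 to 1.78 on day 7. On chromosome 8, chr8:33029601-33038755 had 3.72 and 2.41 FPKM in K1, 56.4 and 57.6 in E1 and 1.84 to 4.81 on day 7. In all 3 the E1 libraries exceeded every other library at least 10-fold, and control and treated fruit overlapped on day 7. Mba10_g13880.v1.1 (chr10:31605316-31610485), the next annotated identifier by size of the difference, had 1.49 and 1.79 FPKM in K1, 37.3 and 34.5 in E1 and 1.25 to 2.70 on day 7.

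**Figure D3:**
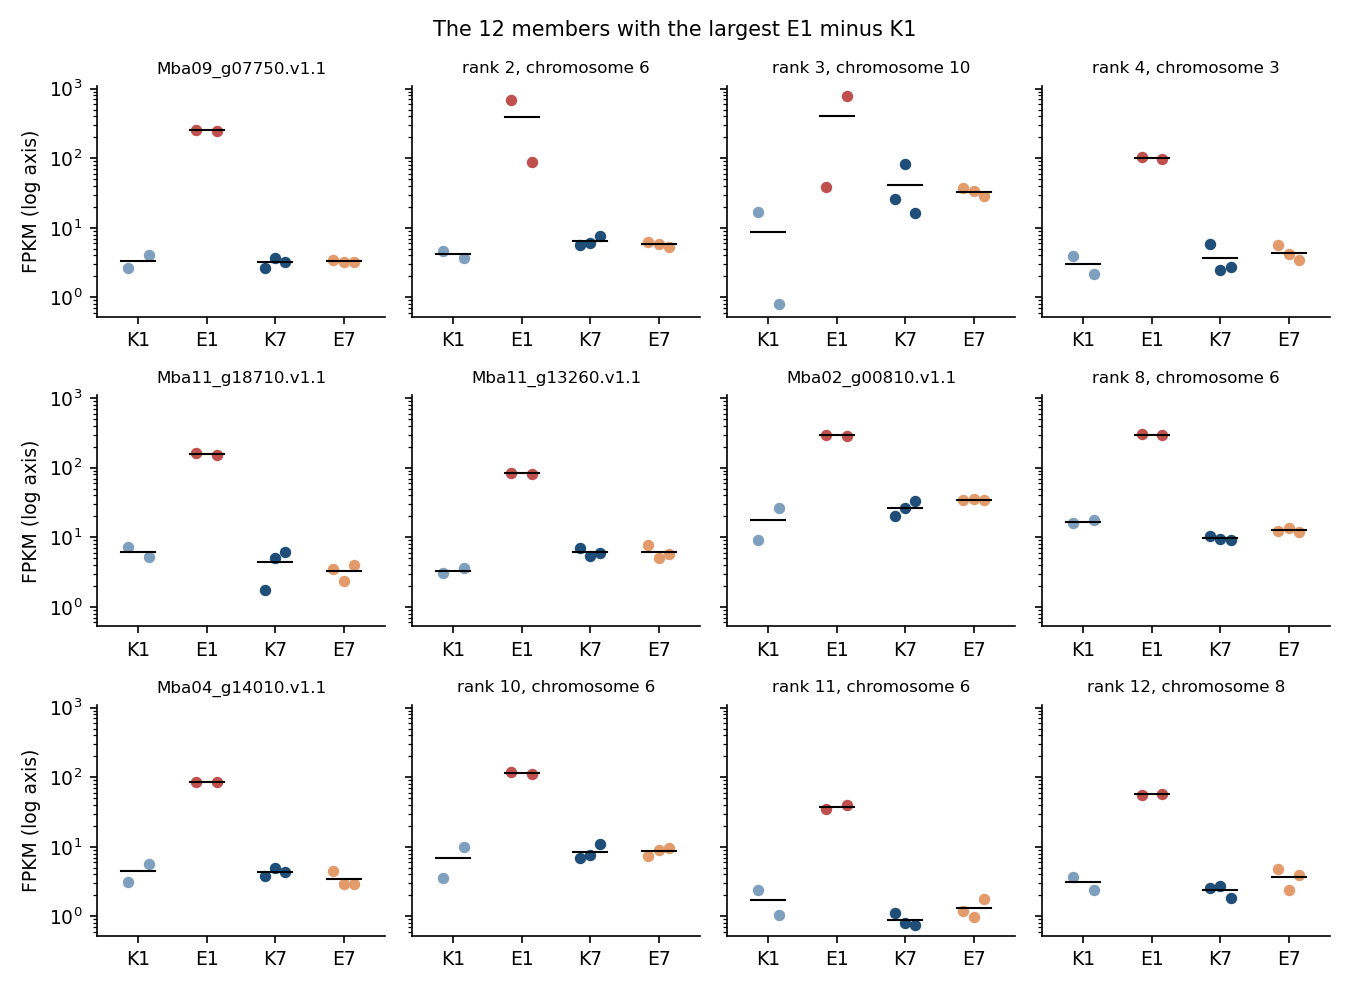
FPKM in each library (points, logarithmic axis) and group means (bars) for the 12 early-induced regions with the largest E1 minus K1 difference, titled by annotated identifier or by rank and chromosome. The E1 libraries agree closely except in the regions of rank 2 and rank 3, where they differ many-fold.

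Among the 12 leading regions, 2 rested on E1 libraries that differed widely. In chr6:6924153-6932139, E1 A had 689 FPKM and E1 C 89.6, against 4.63 and 3.65 in K1 and 5.32 to 7.50 on day 7. The locus that carried this value spanned 6927161-6931838 in both E1 libraries, and the cause of the gap was not tested. In chr10:28319923-28323532, E1 A had 38.0 FPKM and E1 C 773, while K1 had 16.8 and 0.813, K7 26.2, 82.2 and 16.4, and E7 37.0, 33.3 and 29.1. Here E1 A was above both K1 libraries and below K7 B. Such gaps were rare among the early-induced regions: the E1 libraries differed by more than 1 on the log2 scale in 5 of 306 and by more than 2 in 3.

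The K1 libraries differed more. Their gap had a median of 0.43 over the early-induced regions, against 0.14 for E1, and 0.35 and 0.18 over all tested regions. It was above 1 in 40 of the 306 regions and above 2 in 6. Of these 6, 2 separated by layout. Bscaffold126:51263-53689 was listed at 0 in all 3 single-end libraries, at 41.5 FPKM in K1 B, 27.8 and 30.8 in E1, 42.9 and 45.3 in K7 B and C, and 40.9 and 47.6 in E7 B and C. Bscaffold133:31950-33946 had 0.516 to 0.750 FPKM in the single-end libraries and 30.3 to 68.6 in the paired-end ones. Among paired-end libraries alone both were lower in E1 than in K1 B, and they were the exceptions in which E1 was not above both K1 libraries. Their induction by the rule therefore holds only with the single-end library of K1 counted. Against K1 B alone, the E1 mean was higher by 1.5 or more in 222 of the 306 regions, and against K1 A alone in 282.

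The most abundant early-induced regions changed by less. The region chr6:34584670-34645563, 60894 bp long with up to 8 loci in a library, had 617 and 1709 FPKM in K1, 3461 and 3179 in E1, 459, 2506 and 2409 in K7 and 739.8, 2079 and 1905 in E7. Its low values were those of the single-end libraries, and its E1 mean of 3320.3 ± 199 FPKM (SD, n = 2) was 2.85 times the K1 mean. In log2 the E1 mean exceeded K1 A by 2.42 and the paired-end K1 B by 0.96, so this region too met the threshold only with the single-end library counted. The same lowering in single-end libraries was seen in chr4:40099109-40108496, with 128 and 314 FPKM in K1, 891 and 978 in E1, 69.1, 191 and 249 in K7 and 79.3, 195 and 159 in E7. In this region each E1 library was still above every other library.

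In 3 other abundant regions the single-end libraries were not the lowest of each group. The compact region chr3:11561554-11562985 had 293 and 365 FPKM in K1, 1062 and 1027 in E1, 387, 352 and 433 in K7 and 313, 340 and 311 in E7. In chr3:6576825-6587861 the values were 123 and 135 FPKM in K1, 676 and 661 in E1, 200, 178 and 159 in K7 and 188, 184 and 180 in E7. In the first, every E7 library was below every K7 library and within the K1 range. In the second, E7 and K7 overlapped and all 6 libraries were above both K1 libraries. In chr6:40363152-40369109, K1 had 359 and 316 FPKM, E1 1024 and 963, K7 533, 381 and 464, and E7 531, 465 and 447. Its E1 level was 2.94 times that of K1, and its day 7 libraries were all above those of K1. Here the single-end library was the highest of K1, K7 and E7 alike.

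As a description, each library was left out in turn, the rule was applied to the other 9, and the library left out was then compared. Without E1 A, 332 regions met the rule, and in E1 A itself they were higher than K1 by a median of 1.83, with 79.8% of them at 1.5 or more and 99.7% above 0. Without E1 C, 330 regions met it, with a median of 1.80 in E1 C and 80.3% at 1.5 or more. Over all tested regions the E1 minus K1 difference of the group means had quartiles of -0.85 and 0.44. For the regions so chosen, the day 1 difference was of like size in the E1 library left out. The other E1 library and the same K1 libraries still took part in the choice. The E1 libraries also differed by a median of only 0.18 over all tested regions, so little else could be seen and no conclusion is drawn.

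The K1 libraries carried the choice less evenly. Without K1 B, 403 regions met the rule, and the E1 mean exceeded K1 B itself by a median of 1.48, with 48.9% at 1.5 or more. Without K1 A, 287 regions met it, with a median of 1.84 and 69.3%, and 220 of the 306 early-induced regions were among them, the smallest number shared in any of these choices. For day 7, the share of regions within 0.5 of the other treatment when measured by the library left out was 59.2% to 68.9% for the K7 libraries and 65.9% to 80.7% for the E7 libraries. The medians of these day 7 differences were all above 0, from 0.16 to 0.31. Over all tested regions the E7 minus K7 difference of the group means had quartiles of -0.40 and 0.23. A large part of all tested regions thus lay within 0.5 too, and these day 7 shares are not particular to the early-induced regions.

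On day 7 the treated and control fruit were alike by choice, and what remained was small and mostly upward. The E7 minus K7 difference had a median of 0.18 (quartiles -0.04 and 0.36), against -0.11 over all tested regions. The E7 and K7 libraries did not overlap in 75 of the 306 regions (34.7% of all tested regions). As these values were used by the rule, they are a description.

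From day 1 to day 7 the early-induced regions fell in treated fruit. The E7 minus E1 difference had a median of -1.53 (quartiles -2.03 and -1.15) and was below 0 in every one of the 306, where all tested regions had a median of 0.11. All 3 E7 libraries were below both E1 libraries in 298 (24.3% of all tested regions). With limma and Benjamini-Hochberg adjustment at 0.05, 266 of the 306 were called lower in E7 than in E1 (11.0% of all tested regions) and 0 higher (14.3% of all tested regions). The E7 minus E1 difference equals the 3 others combined and is mostly fixed by the rule, so these calls carry no independent weight. The same holds for E1 against K1, where 302 were called higher (17.1% of all tested regions). The shares over all tested regions depended on the scaling. With median-of-ratios scaling, 14.6% were lower and 12.7% higher in E7 than in E1, which turns their order, and 22.7% were higher and 19.5% lower in E1 than in K1, in place of 17.1% and 24.8%.

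How far the level went back by day 7 depended also on the change in control fruit. Expressed as the fall from E1 to E7 in percent of the E1 minus K1 difference, the return had a median of 79.8% (quartiles 62.9% and 95.8%). It reached at least 75% in 179 regions and at least 100% in 64, and was below 50% in 33. E7 was at or above the K1 mean in 242 of the 306 (40.5% of all tested regions), and the E7 minus K1 difference had a median of 0.40, against -0.13 over all tested regions. The rule holds E7 near K7 and favours low K1 values, so these counts are a description.

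In control fruit, the early-induced regions were more often higher than lower on day 7. The K7 minus K1 difference was above 0 in 212 of the 306 (69.3%, against 47.5% of all tested regions), with a median of 0.26 against -0.02. It was at least 0.5 in 80 of them (26.1%, against 7.66%) and -0.5 or less in 20 (6.54%, against 11.8%). All 3 K7 libraries were above both K1 libraries in 76 (11.4% of all tested regions) and below both in 25 (14.4% of all tested regions). These shares are not independent of the rule: K1 libraries enter both E1 minus K1 and K7 minus K1, and a low K1 value raises both.

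The size of this rise depended on K1 A, the single-end library. Without K1 A the median K7 minus K1 difference was 0.11 and 60 of the 306 regions reached 0.5 (10.8% of all tested regions without it). Without K1 B the median was 0.32 and 114 reached 0.5 (12.4% of all tested regions without it). With paired-end libraries alone the median was 0.11, with 1 library in K1. The part of K1 A and of the layout in the rise was not tested.

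**Figure D4:**
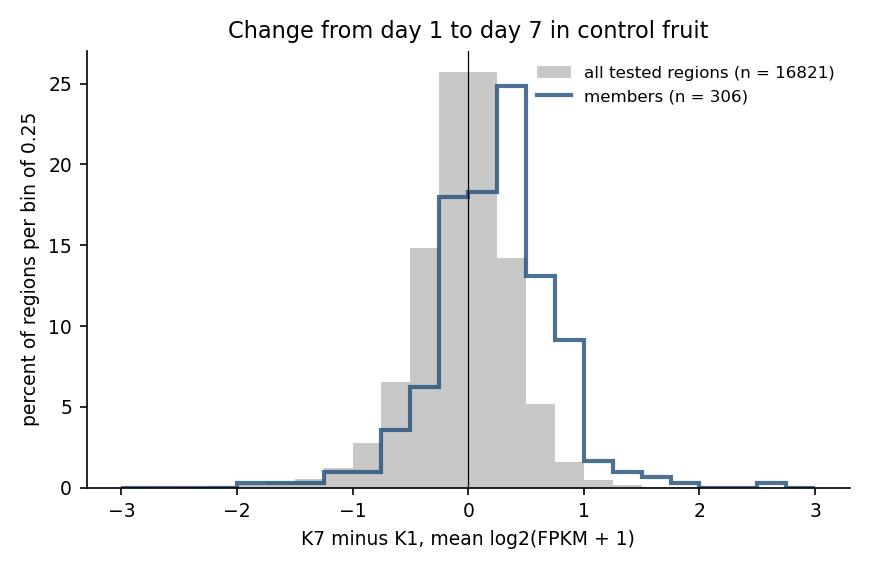
Distribution of the K7 minus K1 difference in control fruit, in mean log2(FPKM + 1), for the 306 early-induced regions (blue line) and all tested regions (grey), in percent of regions per bin of 0.25. Values below -3 are drawn in the lowest bin, and the early-induced regions are shifted to the right, with medians of 0.26 and -0.02.

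Few single regions passed the limma test for K7 against K1. Among the early-induced regions 2 were called higher (0.262% of all tested regions) and 2 lower (1.05% of all tested regions), while 81 of the 306 had an unadjusted p under 0.05 (12.6% of all tested regions). The 4 are named here because they are few, after their values were seen. Mba01_g21380.v1.1 (chr1:16512841-16516356) had 8.60 and 17.3 FPKM in K1, 110 and 104 in E1, 26.3, 43.8 and 49.8 in K7 and 35.1, 37.2 and 36.4 in E7, and K7 was higher than K1 by 1.58 ± 0.30 (SE, limma adjusted p = 0.0401). Bscaffold7:203269-209854 had 3.68 and 7.24 FPKM in K1, 21.6 and 18.9 in E1, 16.2, 27.2 and 22.5 in K7 and 16.4, 15.4 and 14.1 in E7, with K7 higher by 1.86 ± 0.27 (SE, limma adjusted p = 0.0111). These sums are over loci drawn differently in each library, and neither the call nor the day 1 difference of this region can be read apart from that. K1 A had 1 joined locus (203273-208903), while the E1, K7 and E7 libraries had a short locus, of 362 to 384 bp and 10.8 to 22.3 FPKM, beside a longer one. On the longer locus, E1 had 3.72 and 3.30 FPKM and K1 B 4.39, so that E1 was not higher there.

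The regions called lower moved the other way. Mba06_g26190.v1.1 (chr6:31900379-31903722) had 1.51 and 2.16 FPKM in K1, 12.4 and 12.9 in E1, and 0.0353 to 0.164 over the 6 libraries of day 7, with K7 lower than K1 by a log2 difference of -1.38 ± 0.18 (SE, limma adjusted p = 0.0059). In chr6:32652269-32659632, K1 had 16.0 and 17.5 FPKM, E1 303 and 297, K7 10.3, 9.43 and 9.05, and E7 12.5, 13.6 and 11.9, and the K7 minus K1 difference was -0.74 ± 0.15 (SE, limma adjusted p = 0.0486). Both were high in E1 and then below the K1 level on day 7 in both treatments. With only the K1 and K7 libraries in the limma fit, none of the early-induced regions was called, and 51 had an unadjusted p under 0.05 (9.18% of all tested regions). Without K7 C, 2 were called, 1 higher and 1 lower, beside 111 of all tested regions. The fit without E7 C likewise gave 1 higher and 1 lower, beside 131 of all tested regions. Leaving out a K1 or E1 library leaves 1 in that group, so no calls among the early-induced regions are given for those fits. The ranges of calls over all tested regions given below do include them. The count from paired-end libraries alone likewise has 1 library in K1. In such fits the single library was taken to vary as the others do, so no conclusion is drawn from their counts.

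The lowest K7 minus K1 differences belonged to regions that were nearly silent on day 7. Mba07_g23230.v1.1 (chr7:33638752-33639282) had 2.49 and 4.46 FPKM in K1, 14.2 and 10.6 in E1, 0.164, 1.32 and 0 in K7 and 0.524, 0.198 and 0.103 in E7. Mba01_g27620.v1.1 (chr1:21696333-21699258) was listed at 0 in every day 7 library and in K1 A, at 11.1 FPKM in K1 B, and at 19.8 and 11.98 in E1. Its values came from loci with different spans in K1 B and in each E1 library, and with 1 of 2 K1 libraries at 0 its day 1 difference rests on that library.

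Early-induced regions lay on all 11 chromosomes. They made up 1.01% of the tested regions on chromosome 5 (15 of 1490) and 2.35% on chromosome 6 (44 of 1873), with the other chromosomes between. A further 3 lay on unplaced scaffolds. Pairs of early-induced regions with no other region between them occurred 4 times. On chromosome 8, chr8:35685749-35692532 and chr8:35692803-35699574 were 270 bp apart. The first had 20.2 and 8.95 FPKM in K1, 149 and 151 in E1 and 20.5 to 35.6 on day 7, and the second 15.4 and 15.6, 53.5 and 54.0, and 18.0 to 28.3. They differed in size of the day 1 change, 3.38 and 1.73 in log2, and reads that extend past a locus could be shared at this distance.

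The other pairs were 2086 bp apart or more. On chromosome 6, chr6:4275275-4278346 rose from 5.49 and 5.28 FPKM in K1 to 19.6 and 17.3 in E1, and Mba06_g05130.v1.1 (chr6:4280433-4283314) from 10.3 and 15.5 to 80.9 and 94.6. The loci of Mba06_g05130.v1.1 were drawn differently, with 702 and 447 bp in K1 A and a single one of 2768 bp in E1 A. On chromosome 9, Mba09_g01530.v1.1 (chr9:1269458-1293182) had 20.8 and 25.6 FPKM in K1 and 89.2 and 108 in E1, and chr9:1299647-1303629, 6464 bp away, 147 and 227 in K1 and 595 and 590 in E1. The first is a sum over 3 to 5 loci in a library. The locus of the identifier itself, 1289180-1293182, had 10.6 and 10.5 FPKM in K1 and 84.0 and 97.8 in E1. Mba09_g23570.v1.1 (chr9:34934207-34942446) had 3.71 and 5.67 FPKM in K1 and 20.4 and 17.4 in E1, and Mba09_g23590.v1.1 (chr9:34946766-34948153) 1.86 and 1.63 in K1 and 11.0 and 5.21 in E1. On day 7 the former lay between 2.61 and 6.48 FPKM and the latter between 0 and 0.579. The K1 sums of Mba09_g23570.v1.1 include short loci, and its long locus alone had 2.575 and 3.86 FPKM in K1. The locus of Mba09_g23590.v1.1 was 408 bp long on day 7, and 1145 and 1385 bp in E1.

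The early-induced regions were simpler in make-up than the tested regions as a whole. Their median length was 4932 bp (range 531 to 122341), against 6790. In 137 of them (44.8%, against 27.3% of all tested regions) every library had 1 locus, and in 34 (11.1%, against 6.71%) that locus had the same start and end throughout. The other 169 regions rest in some library on a sum over loci. With a mean weighted by locus length in place of the sum, 303 regions met the rule, 236 of them among the 306. An annotated identifier was present in 132 (43.1%, against 34.5%), and 140 different identifiers were found in all.

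Cufflinks gives a lower and an upper bound with each FPKM. In 301 of the 306 regions (19.5% of all tested regions) the summed lower bounds of both E1 libraries were above the summed upper bounds of both K1 libraries, and in 134 of the 137 regions with 1 locus. The E1 and K1 values are those that chose the regions, so nothing is read from these counts. The width of the bounds also allows an estimate of the number of fragments, on the assumption that it follows counting error. This measure was added after the data were seen. It is rough, since bounds can also hold doubt about how fragments divide among transcripts. For Mba09_g07750.v1.1 it gave 278 and 258 fragments in K1 and 12730 and 14488 in E1. The E1 minus K1 difference of that region was 5.55 by fragments and 5.86 by FPKM.

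By fragments scaled to library size (with 0.5 added, on the log2 scale), the early-induced regions differed between E1 and K1 by a median of 1.52 (quartiles 1.01 and 2.06), against -0.28 over all tested regions. The difference was above 0 in 297 of the 306 (38.4% of all tested regions), at least 1 in 230 (12.2%) and at least 1.5 in 156 (7.07%), in the contrast that chose the regions. In 55 (18.0%, against 7.69% of all tested regions) the FPKM difference was larger than the fragment difference by more than 1, and in 6 smaller by more than 1. For chr6:6924153-6932139 the estimate was 1552 fragments in E1 A and 1996 in E1 C, while FPKM there was 689 and 89.6. For chr10:28319923-28323532 it was 498 and 428, with FPKM of 38.0 and 773. In these regions the E1 libraries were close by fragments and far apart by FPKM.

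The gap was also wide in chr6:32652269-32659632, at 4.09 by FPKM and 1.31 by fragments, and in chr2:24373474-24379235, at 2.19 and -0.46. The latter was among the 9 regions not higher in E1 by fragments. Over the 137 regions with 1 locus in every library the median by fragments was 1.74, and 83 reached 1.5. Of the 12 leading regions, 11 reached 1.5 by fragments. Among them was chr10:28319923-28323532, where this rests on K1 B, with 0.813 FPKM against 16.8 in K1 A. By the bounds, K1 A had more fragments there than either E1 library, before scaling to library size. The cause of the differences between the measures was not tested.

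**Figure D5:**
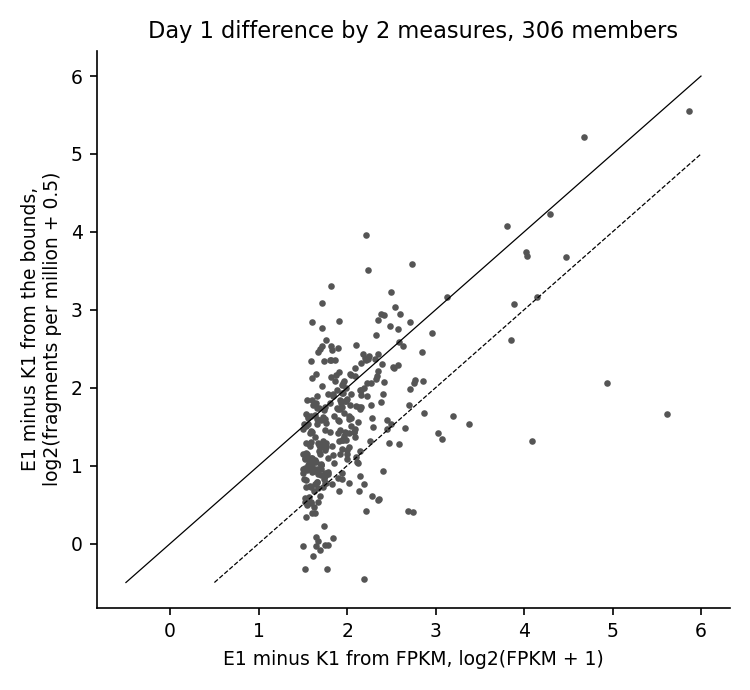
E1 minus K1 difference of each of the 306 early-induced regions from FPKM (horizontal, log2(FPKM + 1)) and from the fragments that the bounds imply (vertical, log2 scale, scaled to library size with 0.5 added). The solid line marks equal differences and the dashed line a fragment difference smaller by 1, below which 55 regions lie.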

How the data were processed

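The authors checked reads with FastQC 0.11.8, trimmed adapters with Trimmomatic 0.38.0, used TopHat to map them on the DH PKW v1.1 assembly, and estimated abundance with Cufflinks (version 2.2.2.1 per the submitters' processing notes). The deposited values are FPKM, 1 table per library, already scaled by length and library size, with no fragment counts. How strand and multi-mapped reads were handled is not given in these sources. Depth behind a value is therefore known only through the bounds.

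Loci of at least 300 bp were merged by overlap over the 10 tables and their FPKM summed. Shorter loci were left out, and 79 of the chosen regions overlap one in some library. The tests used log2(FPKM + 1) in limma 3.58.1 (R 4.3.3), two-sided, with 1 coefficient per group, a mean-variance trend, and p-values adjusted by Benjamini-Hochberg over the 16821 regions averaging 1 FPKM or more. The code was tested on simulated data in which 200 regions were changed by 2 on the log2 scale. It recovered 85% of them for K7 against K1 and 84% for E7 against E1. Among the calls 6.08% and 7.18% were false, above the level of 0.05 that was set. A contrast of groups that chose the regions gives no independent test. The regions, the rules for naming them and the comparisons were chosen with earlier results of these data known.

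Regions named were the 12 with the largest day 1 difference, the 6 most abundant in E1, the 6 annotated identifiers with the largest difference, the 2 highest and 2 lowest in K7 minus K1 and neighbouring pairs. Others were named after their values were seen. The alternatives were other pseudocounts, thresholds, locus lengths, filters, scalings and region values, paired-end libraries alone, layout as a term, replicate blocks, the groups of a contrast alone and each library left out.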

Additional observations from a re-analysis of the deposited data

How the results depend on the processing

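The number of regions that met the rule was 182 with a pseudocount of 5, 201 with a control FPKM of at least 5, 804 and 116 with a day 1 threshold of 1 and 2, and 149 and 584 with day 7 limits of 0.25 and 1. It ranged from 281 to 403 as each library was left out. Median-of-ratios scaling gave 429, and it moved the median E1 minus K1 difference of all tested regions from -0.24 to -0.02. Paired-end libraries alone gave 292 regions, 195 of them among the 306, and fragments implied by the bounds 204, with 112 among the 306. The median E1 minus K1 difference of the 306 was 2.12 and 1.46 with pseudocounts of 0.1 and 5, 2.103 with median-of-ratios scaling and 1.52 by fragments, and 1.82 to 2.04 as each library was left out.

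For K7 against K1, the 4 regions called became 8 with quantile normalization, 9 with layout as a term and 0 with only the groups of the contrast. They became 2 to 4 as each K7 or E7 library was left out. Over all tested regions the 220 calls became 74 with paired-end libraries alone, 332 with layout as a term, 146 with a mean FPKM of at least 5 and 3 with only the groups of the contrast, and 111 to 190 as each library was left out. As each library was left out, the 4263 calls for E7 against E1 ranged from 2058 to 4555, the lowest without E1 C or E1 A, where the single library of that group was taken to vary as the others do.

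The sources do not say whether replicate letters pair the libraries, and the values cannot settle it. Between K7 and E7 the same-letter correlations of deviations from the group means were 0.332, 0.031 and 0.118. Those between different letters ranged from -0.258 to 0.197. The value of 0.332 was that of K7 A with E7 A, both single-end, so letter and layout cannot be told apart there. With a replicate block by numbers 2 of the 306 regions were called for K7 against K1 and 116 of all, and by letters 3 and 133. For E7 against E1 the replicate block gave 260 by numbers and 265 by letters of the 306, against 266.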
